A study of Mus musculus with 8 samples.

Results

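Hemoglobin and red cell precursor transcripts were followed in RNA-Seq libraries of the distal lung, an epithelium-enriched preparation. They were taken as a record of blood, and the cells that made them were not determined. The set holds 8 of the 22756 genes counted, taken by gene symbol. They are the alpha globin genes Hba-a1 and Hba-a2, the beta globin genes Hbb-b1 and Hbb-b2, and the red cell precursor genes Alas2, Slc4a1, Klf1 and Epb4.2. The genes were chosen after the blood content of each library and the Hbb-b2 share of beta globin in each genotype had been seen. These values are therefore given as a description, with no test. Single genes of the set were compared by CS and by sex with their levels already known, so nothing rests on those p-values.

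The 8 libraries fell into 4 groups, with 1 male and 1 female library in every group. All mice were adult and over 90 percent C57BL/6. The α7G mice carried Chrna7-IRES-tauGFP, and the α7E260A:G mice carried Chrna7-E260A-IRES-tauGFP, so that both had the reporter in the gene of the α7 nicotinic acetylcholine receptor. In either genotype the CS groups breathed side-stream smoke of cigarettes (CS) on 5 days per week for 4 months and were used 24 hours after the last exposure, and the control groups were kept in room air. The cells came from lavaged lungs without trachea and were depleted of CD45-positive cells with magnetic beads, and the study's protocol for such cell fractions includes a step that lyses red blood cells. The number of mice behind a library is not stated in the sources used here, so the spread between the libraries of a group may be technical in part.

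Hemoglobin is built from alpha and beta globin chains, each carrying a heme group. In the mouse each adult chain is encoded by a pair of neighboring gene copies, and inbred strains differ in the form of the beta globin locus that they carry. Red cell precursors switch these genes on together with the heme pathway and the proteins of the red cell membrane. Mature red cells of mammals have lost the nucleus, while the youngest of them, the reticulocytes, still hold globin messenger RNA.

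The coding sequences (CDS) of each pair of copies are nearly the same, which limits what a count can say about a single copy. Over the 429 bases of the alpha globin CDS, stop codon included, Hba-a1 and Hba-a2 differ at 1 base, C381T, counted from the start codon and with the base of Hba-a1 first. Over the 444 bases of the beta globin CDS, Hbb-b1 and Hbb-b2 differ at 1 base, C417T, with the base of Hbb-b1 first. The last 60 bases of the 4 coding sequences are printed 5′ to 3′ because they hold these differences, which are in capitals. They are from the mm9 build, at chr11:32184332-32184391 on the plus strand for Hba-a1, chr11:32197149-32197208 on the plus strand for Hba-a2, chr7:110975179-110975238 on the minus strand for Hbb-b1 and chr7:110961170-110961229 on the minus strand for Hbb-b2, in the last coding exon of each gene.
Hba-a1: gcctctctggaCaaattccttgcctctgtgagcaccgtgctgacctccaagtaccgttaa
Hba-a2: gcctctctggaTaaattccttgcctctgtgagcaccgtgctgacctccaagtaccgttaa
Hbb-b1: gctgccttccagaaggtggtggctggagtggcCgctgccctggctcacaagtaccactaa
Hbb-b2: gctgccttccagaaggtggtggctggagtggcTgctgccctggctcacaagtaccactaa

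Reads can also be placed by the bases beside the CDS. Of all stretches of 50 bases that touch the CDS of a gene, 13.4% in Hba-a1 and 10.8% in Hba-a2 do not occur in the other copy. The percentage was 22.7% for both Hbb-b1 and Hbb-b2. For stretches of 36 bases it was 7.76% in the alpha pair and 17.5% in the beta pair. The length of the reads and the treatment of reads that match both copies are not given in the sources used here. The split of counts within a pair is therefore uncertain, while the sum over a pair is less exposed to it.

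The copies of a pair lie close together. Hba-a1 (ENSMUSG00000069919.6) is at chr11:32183511-32184465 of mm9, 12.02 kb from Hba-a2 (ENSMUSG00000069917.6) at chr11:32196489-32197301. Hbb-b1 (ENSMUSG00000052305.5) is at chr7:110975048-110976610, 12.5 kb from Hbb-b2 (ENSMUSG00000073940.3) at chr7:110961038-110962510. Chrna7, the gene altered in both genotypes, lies on the same chromosome as the beta globin genes, 40.6 Mb from Hbb-b2. The other genes of the set are Alas2 (ENSMUSG00000025270.7, chrX:146981918-147005181), Slc4a1 (ENSMUSG00000006574.9, chr11:102210138-102227517), Klf1 (ENSMUSG00000054191.7, chr8:87425827-87429194) and Epb4.2 (ENSMUSG00000023216.7, chr2:120843627-120862808).

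The total CDS counts per library were between 8020726 and 10944100, and a floor of 3 counts corresponded to 0.274 to 0.374 RPM, where RPM stands for counts per 1000000 counts of the library. The sex labels matched the Y-linked transcript of Ddx3y, which had 520 to 882 counts in the male and 0 in the female libraries. Chrna7 had 0 counts in 7 libraries and 4 counts in the male α7E260A:G control, which does not allow a check of the altered gene. The protocol describes an EpCAM-positive fraction depleted of leukocytes, whose purity the study checked on the cells before libraries were made. Epcam was measured at 78.5 to 212 RPM, and Ptprc, which encodes CD45, at 771 to 1935 RPM. These RNA levels are not scaled for the length of the coding sequence and do not give the share of either kind of cell. The male α7E260A:G CS library stood apart in the transcripts described here, and values are given with and without it.

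The 4 globin genes together made up 0.205% of the counts in the male and 0.104% in the female α7G control, and 0.151% in the male and 0.111% in the female α7G CS library. In α7E260A:G they made up 0.124% in the male and 0.0595% in the female control, and 0.883% in the male and 0.0191% in the female CS library. The highest and the lowest library were thus both α7E260A:G CS libraries, 46.3-fold apart in RPM. The male α7E260A:G CS library was 4.31-fold above the next highest library, the male α7G control. Counting error was small beside this, and the widest 95% Wilson interval of a globin percentage ran from 0.876% to 0.889%, in the male α7E260A:G CS library. Such intervals cover counting error only.

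The mean over the 4 libraries of a genotype was 0.143% ± 0.0462 (SD, n = 4) in α7G and 0.271% ± 0.410 (SD, n = 4) in α7E260A:G. Without the male CS library the 3 remaining α7E260A:G libraries had a mean of 0.0676% ± 0.0530 (SD, n = 3), so the order of the genotype means turned with this library. In bulk RNA a lower level cannot be told apart between fewer red cells, less globin RNA per red cell and a change in the other cells. Whether cells other than red cells added globin RNA was not tested.

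**Figure D1:**
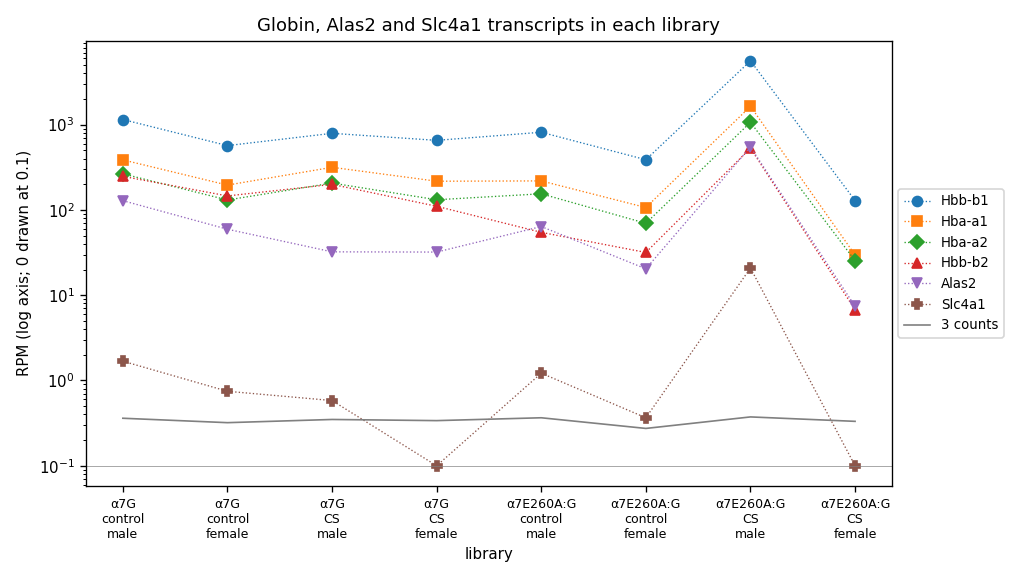
Expression of 6 genes in each of the 8 libraries, in RPM on a log axis, with 0 drawn at 0.1 and the grey line at 3 counts. All 6 peak in the male α7E260A:G CS library, and the 4 globin genes and Alas2 are lowest in the female α7E260A:G CS library.

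Among the globin genes, Hbb-b1 had the highest level per length of CDS, with a median over the 8 libraries of 1638 RPM per kb. The median was 511 RPM per kb for Hba-a1, 336 RPM per kb for Hba-a2 and 290 RPM per kb for Hbb-b2. Their ranges over libraries were wide and overlapped, and the split within each pair carries the uncertainty given above.

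Hba-a1 had 386 RPM in the male and 195 RPM in the female α7G control, 316 and 217 RPM in the male and female α7G CS, 219 and 107 RPM in the male and female α7E260A:G control, and 1639 and 29.6 RPM in the male and female α7E260A:G CS library. Hba-a2 followed it closely, with 25.4 RPM in the female and 1065 RPM in the male α7E260A:G CS library and 69.6 to 265 RPM in the other 6. Across the 8 libraries the log2 RPM of the 2 genes had a Pearson r of 0.997, a description over libraries that share total depth and, for these copies, nearly all CDS bases.

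Hbb-b1 had 1148 RPM in the male and 567 RPM in the female α7G control, 791 and 654 RPM in the male and female α7G CS, 814 and 388 RPM in the male and female α7E260A:G control, and 5594 and 129 RPM in the male and female α7E260A:G CS library. It was the gene with the 9th highest count in the male α7E260A:G CS library and the 1282nd in the female one. Hbb-b2 had 248 and 146 RPM in the male and female α7G control, 199 and 110 RPM in the male and female α7G CS, 54.6 and 31.7 RPM in the male and female α7E260A:G control, and 530 and 6.75 RPM in the male and female α7E260A:G CS library. Its log2 RPM had an r of 0.896 with that of Hbb-b1 over the 8 libraries, lower than the 0.990 between Hbb-b1 and Hba-a1.

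Hbb-b2 took a smaller share of the beta globin counts in every α7E260A:G library than in any α7G library. Of the counts of Hbb-b1 plus Hbb-b2 it took 17.7% for the male and 20.4% for the female α7G control, and 20.1% in the male and 14.4% in the female α7G CS library. In α7E260A:G it took 6.29% for the male and 7.56% for the female control, and 8.65% for the male and 4.98% for the female CS library. The means were 18.2% ± 2.78 (SD, n = 4) in α7G and 6.87% ± 1.59 (SD, n = 4) in α7E260A:G, a ratio of 2.65, and the gap lay between 14.4% and 8.65%. Over all genes tested, 7.88% had RPM values that did not overlap between the genotypes, but this share was what the genes were chosen on and nothing is read from its separation.

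Without the male α7E260A:G CS library the other 3 α7E260A:G libraries had a mean share of 6.28% ± 1.29 (SD, n = 3). The lowest share came from the library with the fewest globin counts, 61 of Hbb-b2 among 1225 beta globin counts, with a 95% Wilson interval of 3.896% to 6.34%.

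Set against alpha globin, the copies of beta globin differed between the genotypes in opposite directions. Hbb-b2 gave 0.317 to 0.447 counts per alpha globin count in α7G and 0.122 to 0.196 in α7E260A:G. Hbb-b1 gave 1.51 to 1.88 counts per alpha globin count in α7G and 2.07 to 2.34 in α7E260A:G. Both ranges were free of overlap, with means of 0.381 ± 0.0534 and 0.161 ± 0.0331 (SD, n = 4 each) for Hbb-b2 and of 1.72 ± 0.152 and 2.20 ± 0.110 (SD, n = 4 each) for Hbb-b1. These ratios come from the same contrast as the choice of genes and have no test.

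The alpha pair was split more evenly. The Hba-a2 share of Hba-a1 plus Hba-a2 came to 40.7% for the male and 40.1% for the female α7G control, and 39.5% in the male and 37.7% in the female α7G CS library. It came to 41.4% for the male and 39.5% for the female α7E260A:G control, and 39.4% in the male and 46.2% in the female α7E260A:G CS library. The genotypes overlapped, with means of 39.5% ± 1.27 (SD, n = 4) in α7G and 41.6% ± 3.18 (SD, n = 4) in α7E260A:G. The highest share had the widest 95% Wilson interval, 41.9% to 50.6%, in the library with 498 alpha globin counts.

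**Figure D2:**
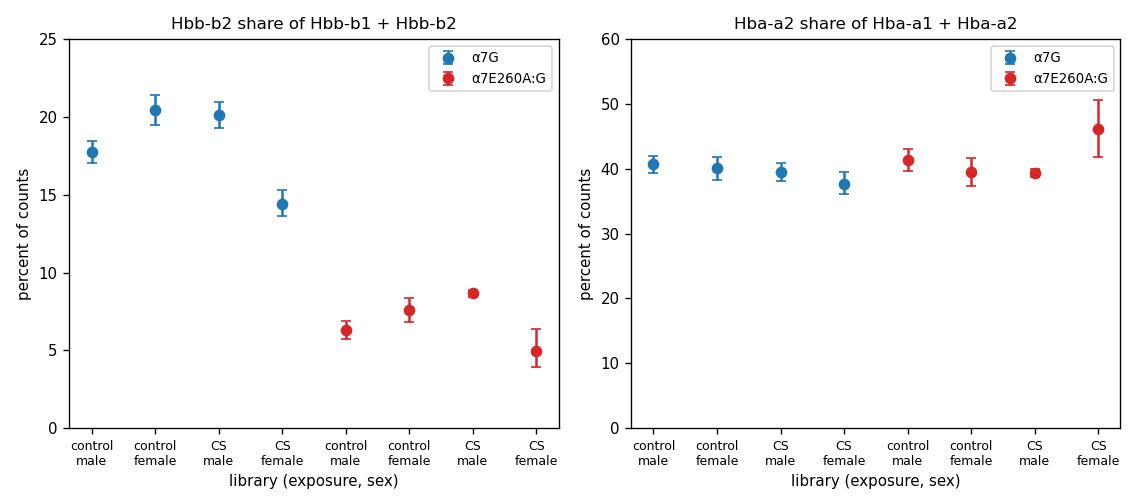
Share of counts within each pair of globin copies in each library, in percent, with 95% Wilson intervals as bars. The Hbb-b2 share is 14.4% to 20.4% in α7G and 4.98% to 8.65% in α7E260A:G, while the Hba-a2 share runs from 37.7% to 46.2% with both genotypes mixed.

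**Figure D3:**
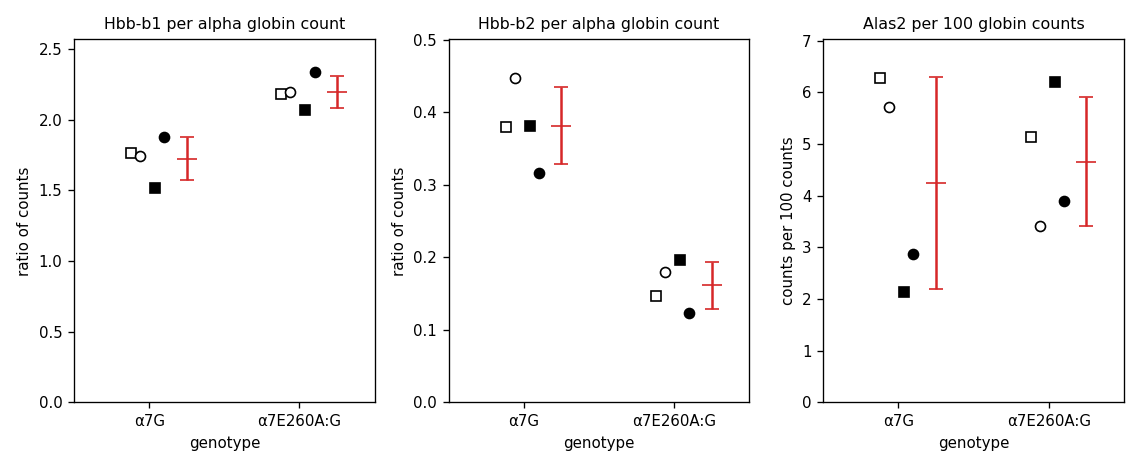
Counts of Hbb-b1 and Hbb-b2 per alpha globin count, and of Alas2 per 100 counts of the 4 globin genes. Squares are male and circles female libraries, open symbols controls and filled symbols CS, and red bars show the mean and SD of the 4 libraries of a genotype.

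The genes around the beta globin pair were not part of the set and were tested between the genotypes over both exposures with edgeR, which models the counts of all genes and shares their spread. Of the 105 other genes within 1 Mb of the pair, 11 passed the filter used for all tests, a mean count of 10 or more, and were all TRIM family genes between 391 and 642 kb beyond Hbb-b1. TRIM proteins are a family of ubiquitin ligases, several of which act in antiviral defense. Of these 11, 2 were lower in α7E260A:G at an adjusted p under 0.05, against 0.022 percent of the 13637 genes tested that were called lower and 0.0953 percent called in either direction.

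Trim12a (ENSMUSG00000066258.6, chr7:111448408-111463980) was the nearer of the 2, at 472 kb from Hbb-b1. It had 433, 395, 460 and 416 counts in the α7G libraries and 1, 0, 1 and 1 counts in the α7E260A:G libraries. Summed over libraries, its RPM was 585-fold higher in α7G, with an exact 95% counting interval of 200-fold to 2841-fold. The fitted log2 fold change was -8.94, with an adjusted p of 0.000183 in edgeR's quasi-likelihood test after Benjamini-Hochberg correction, a value that depends on the prior count.

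Trim30d (ENSMUSG00000057596.7, chr7:111618528-111656363) had 103 to 232 counts in α7G and 0 to 7 counts in α7E260A:G. Its log2 fold change was -5.40 ± 0.493 (SE) with an adjusted p of 0.0154 by the same edgeR test. That call was lost when any 1 of the 4 α7G libraries was left out, with adjusted p between 0.114 and 0.261, while the log2 fold change stayed between -5.48 and -5.30. Trim5 had 52 to 99 counts in α7G and 0 to 4 in α7E260A:G, and Trim34a had 179 to 339 in α7G and 18 to 47 in α7E260A:G, both with an adjusted p of 0.0593.

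In all, 5 of these 11 genes had every α7E260A:G library below every α7G library, against 5.54 percent of all genes tested. Trim30b is among the 11 under separate entries that overlap on the genome. Its entry ENSMUSG00000052749.7 was among the 5, with 123 to 329 counts in α7G and 40 to 79 in α7E260A:G. Its entry ENSMUSG00000091576.1 was not, with 10 to 47 and 3 to 11 counts, and neither was called. Trim12c and Trim30a, which lie among these 11 genes, had log2 fold changes of 0.25 and 0.13. They were not called, with adjusted p of 0.702 and 0.885 by edgeR. Trim34b was not called either, with 0 to 8 counts in α7G and 11 to 25 in α7E260A:G, a log2 fold change of 2.20 and an adjusted p of 0.326 by edgeR. The TRIM genes not called are named after their values were seen. Reads of close TRIM copies can be split between them in counting, so the single genes are uncertain. Around the alpha globin pair 14 other genes passed the same filter and none was called, with a median log2 fold change of -0.08 and 1 gene at an unadjusted p under 0.05. Whether the beta globin share and the TRIM genes differ for one reason was not tested.

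**Figure D4:**
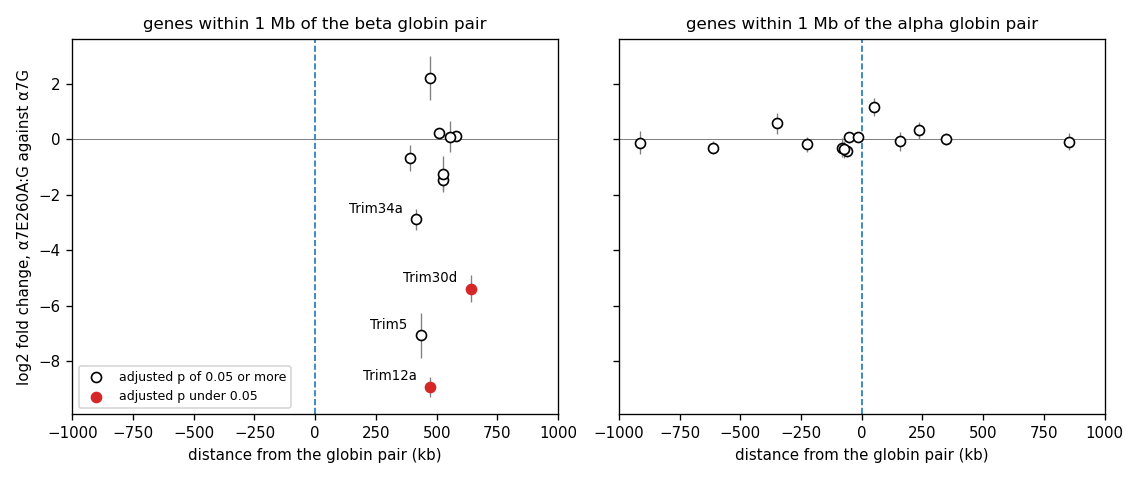
Log2 fold change between the genotypes (α7E260A:G against α7G, edgeR, bars are SE) of genes that passed the filter, by their distance in kb from the beta or alpha globin pair, which is at 0. Trim12a and Trim30d, the red points with an adjusted p under 0.05, are at -8.94 and -5.40 on the beta globin side, and the genes near alpha globin lie between -0.43 and 1.18.

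Alas2 encodes the erythroid form of the first enzyme of heme synthesis. It had 128 RPM in the male and 59.4 RPM in the female α7G control, and 32.2 and 32.0 RPM in the male and female α7G CS library. In α7E260A:G it had 63.8 and 20.4 RPM in the male and female control, and 547 and 7.41 RPM in the male and female CS library. Its level moved with globin, with an r of 0.957 between log2 RPM of Alas2 and of the summed globin genes over 8 libraries and of 0.903 over the 7 libraries without male α7E260A:G CS.

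Per 100 globin counts there were 6.27 and 5.71 counts of Alas2 in the male and female α7G control and 2.13 and 2.88 in the male and female α7G CS library. Both sexes were lower with CS in α7G, by a ratio of 0.340 in males and 0.504 in females. In α7E260A:G the values were 5.14 and 3.42 in the male and female control and 6.19 and 3.89 in the male and female CS library, with ratios of 1.20 and 1.14. The Alas2 CDS is longer than those of globin, at 1761 against 426 and 441 bases without the stop codon, and the dependence of counts on CDS length differed between libraries. With that dependence removed, the α7G values were 4.55 and 5.22 in the male and female control and 2.84 and 3.66 with CS. The α7E260A:G values were then 3.10 and 5.26 in the male and female control and 4.69 and 4.89 with CS, so that the ratio of the female pair turned.

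Slc4a1 encodes band 3, the anion exchanger of the red cell membrane. It had 14 and 7 counts in the male and female α7G control, 5 and 0 in the male and female α7G CS, 10 and 4 in the male and female α7E260A:G control, and 167 and 0 in the male and female α7E260A:G CS library. The male α7E260A:G CS library held 80.7% of all its counts, and without that library the gene would not have reached a mean count of 10. A count of 0 allows up to 0.338 RPM in the female α7G CS and 0.332 RPM in the female α7E260A:G CS library.

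Klf1, an erythroid transcription factor that drives adult beta globin expression, had 5, 4 and 5 counts in the male α7G control, the male α7E260A:G CS and the female α7G CS library and 0 in the other 5. Epb4.2, the membrane protein band 4.2, had 6 counts in the male α7E260A:G CS library and 0 in the other 7. Both were at or just above the floor, were left out of all tests by the mean count filter, and have no fold change. The precursor part of the set was thus well measured only by Alas2, and by Slc4a1 in a single library.

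CS was compared with control in each genotype by edgeR over the 13637 genes that passed the mean count filter, of which 6 are in the set. The globin level of each library was known before these fits and those by sex below. For the set they are therefore a description. None of the 6 was called in α7G, where 0 percent of all genes were called, 915 genes had an unadjusted p under 0.05 and DESeq2 called 25 genes, none of them in the set. None was called in α7E260A:G, where 0.00733 percent of all genes were called, 428 had an unadjusted p under 0.05 and DESeq2 called 35, none in the set. No gene of the set reached an unadjusted p under 0.05 in either. For none of the 6 were all CS libraries on one side of all controls, against 2.77 percent of the genes tested, since the CS libraries held both the highest and the lowest globin levels.

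The male and female pairs went opposite ways in α7E260A:G. The ratio of CS to control in RPM was 7.49 for Hba-a1, 6.90 for Hba-a2, 6.87 for Hbb-b1, 9.71 for Hbb-b2 and 8.56 for Alas2 in males. In females it was 0.278 for Hba-a1, 0.365 for Hba-a2, 0.332 for Hbb-b1, 0.213 for Hbb-b2 and 0.364 for Alas2. The fitted log2 fold changes of the 6 genes were 2.13 to 3.60 with SE of 1.22 to 1.80 and an edgeR adjusted p of 1.00. Without the male CS library those of the globin genes and Alas2 were -2.59 to -2.03, and the sign of the response thus rested on that library. Slc4a1, which had the highest value of 3.60, no longer passed the count filter then, so nothing is read from it.

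In α7G the pairs differed less. CS over control in RPM was 0.818 in males and 1.11 in females for Hba-a1, and 0.689 and 1.15 for Hbb-b1. For Alas2 this ratio was 0.251 in males and 0.540 in females, the lowest of the 4 globin genes and Alas2. The edgeR log2 fold changes of the 4 globin genes were -0.20 to 0.02, and the sign of Hba-a1, Hba-a2 and Hbb-b1 depended on the processing. That of Alas2 was -1.39 ± 1.33 (SE) with an adjusted p of 0.707. When the 4 α7G libraries were fitted alone, an alternative chosen after seeing the data, Alas2 had -1.42 ± 0.313 (SE) and an adjusted p of 0.0364 by edgeR, the 1 gene of the set called there, against 6.79 percent of the genes tested. Leaving the male α7E260A:G CS library out of the fit of all groups gave -1.39 ± 0.507 (SE) and an adjusted p of 0.668.

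The difference between the CS responses of the genotypes was positive for the globin genes, Alas2 and Slc4a1. Log2 values were 2.21 to 4.01 with SE of 1.67 to 1.91 for the globin genes and Alas2, and 5.48 ± 2.76 (SE) for Slc4a1. None was called by edgeR, with an adjusted p of 1.00, where 0 percent of genes were called, 297 genes had an unadjusted p under 0.05 and DESeq2 called 11, none in the set. Without the male α7E260A:G CS library the values of the globin genes and Alas2 were -2.39 to -0.98. Slc4a1 passed the filter only through that library, so nothing is read from its value. Over both genotypes the CS log2 fold changes were 0.61 to 1.15, and none was called by edgeR, with adjusted p of 0.725 to 0.846. There 0 percent of genes were called, 1042 had an unadjusted p under 0.05 and DESeq2 called 68, none in the set.

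The male library had more globin than the female library in each of the 4 groups. The ratio of male to female in summed globin RPM was 1.97 in α7G control, 1.36 in α7G CS, 2.09 in α7E260A:G control and 46.3 in α7E260A:G CS. Every male library was above every female library in RPM for Hba-a1, Hba-a2 and Hbb-b1, 3 of the 6 genes. This was so for 4.54 percent of all genes tested, and 5.37 percent had sexes apart in either direction. On library sizes scaled by TMM, edgeR's normalization, it held for 2 of the 6, Hba-a2 and Hbb-b1, against 2.73 percent. For Hbb-b2, Alas2 and Slc4a1 the sexes overlapped. The globin level of each library was known when the genes were chosen. Hba-a1, Hba-a2 and Hbb-b1 also moved together, with r of 0.990 to 0.997 between them over the 8 libraries. The counts of 3 and 2 genes are therefore a description, and nothing is read from them beside those percentages.

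With the 4 groups in the model the log2 fold changes of female against male were -1.72 to -1.49 for the globin genes and Alas2 and -3.18 for Slc4a1. None was called by edgeR, with adjusted p of 0.308 to 0.374, where 0.022 percent of genes were called. Of the 6 genes 1 had an unadjusted p under 0.05, Slc4a1, which passed the filter only through the male α7E260A:G CS library, so nothing is read from it. Over all genes 2205 had an unadjusted p under 0.05, and DESeq2 called 52 genes, none in the set. Without the male α7E260A:G CS library the values for the globin genes and Alas2 were -0.79 to -0.64, with an adjusted p of 0.732.

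**Figure D5:**
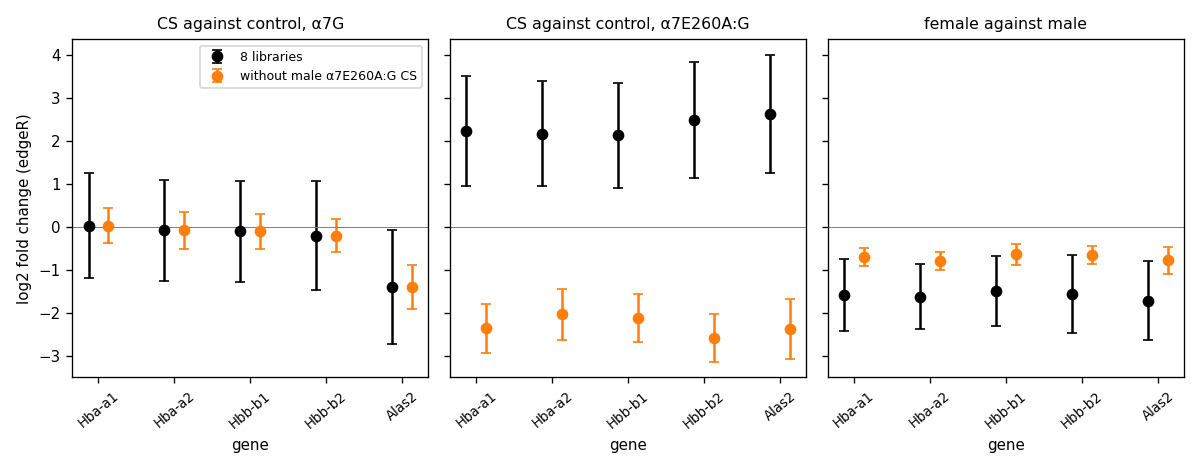
Log2 fold change ± SE by edgeR of the 4 globin genes and Alas2, from all 8 libraries (black) and without the male α7E260A:G CS library (orange). The CS values in α7E260A:G are 2.13 to 2.62 with that library and -2.59 to -2.03 without it, those in α7G differ little, and those for sex stay below 0.

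Other genes of red cells and of heme were taken from fixed lists. None of the 6 other globins in the table, embryonic or theta forms, reached a mean count of 10, and their summed level was 0.748 RPM at most. Of 51 further genes in 5 lists, 40 were tested, and edgeR called none of the 40 in any of the 6 comparisons. The lowest adjusted p was 0.116, for Epor in the comparison of the genotypes.

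Among red cell membrane and blood group genes, 7 of 15 were tested. Epb4.1, which encodes protein 4.1 of the membrane skeleton and is made in many cells, was the most abundant at 39.4 to 119 RPM, followed by Epb4.9, Tspan33 and Xk with mean counts of 33.8, 19.1 and 17.9. The median log2 fold change of the 7 with CS was -0.53 in α7G and -0.10 in α7E260A:G, beside 0.00 and -0.02 over all genes. Trim10 and Spna1 are named after their values were seen. Trim10, a gene of maturing erythroid cells, had 41 counts in the male α7E260A:G CS library and 0 to 10 in the other 7. Spna1, alpha spectrin, had 49 counts there and 0 to 21 elsewhere, and passed the filter only through that library. Of the 7 tested, Epb4.1, Spna1 and Spnb1 peaked there. Spnb1, with 38 counts there and 0 to 18 elsewhere, also passed the filter only through that library. Nothing is therefore read from the peaks of Spna1 and Spnb1. Ank1, Epb4.9, Tspan33 and Xk did not, with 21, 26, 18 and 18 counts there and up to 29, 43, 27 and 29 elsewhere.

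Among 11 erythroid regulators, 9 were tested. The most abundant were Ldb1 at 69.7 to 139 RPM, Myb at 18.3 to 45.3 RPM, Lmo2 at 23.6 to 45.2 RPM and Nfe2 at 21.4 to 39.1 RPM, all cofactors or factors of blood cell transcription, and none peaked in the male α7E260A:G CS library. Gata1, the master factor of red cell and platelet precursors, had 3 to 19 counts, with 19 in the male α7E260A:G CS library and up to 16 elsewhere. The median log2 fold change of the 9 with CS was -0.18 in α7G and 0.10 in α7E260A:G. Epor, the erythropoietin receptor, had 27, 47, 26 and 41 counts in α7G and 53, 110, 83 and 101 in α7E260A:G, and the genotypes did not overlap. It was highest in the male α7E260A:G CS library, with 110 counts. Its log2 fold change was 1.35 with an adjusted p of 0.116 by edgeR and was called by DESeq2 (adjusted p = 0.00141), as were 3.78 percent of the genes tested.

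All 10 genes of heme synthesis other than Alas2 were tested. Alas1, the form of the first enzyme made outside the red cell lineage, was the most abundant at 585 to 1217 RPM. Urod, Alad and Fech, further enzymes of the pathway, had 55.3 to 102, 32.1 to 63.3 and 31.2 to 76.2 RPM. Fech, which inserts the iron, had 76.2 RPM in the male α7E260A:G CS library and 31.2 to 38.7 RPM in the other 7. The median log2 fold change of the list with CS was 0.17 in α7G and 0.12 in α7E260A:G.

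Of 7 genes of reticulocyte metabolism 6 were tested. Prdx2, a peroxidase, had 82.2 to 239 RPM, Tfrc, the transferrin receptor, 31.3 to 84.2 RPM, and Bnip3l, which acts in the clearance of mitochondria, 22.3 to 37.2 RPM, and none of these peaked with globin. Bpgm, the enzyme that makes 2,3-bisphosphoglycerate, had 134 RPM in the male α7E260A:G CS library and 26.5 to 55.1 RPM elsewhere. The median log2 fold change of the 6 with CS was -0.01 in α7G and 0.47 in α7E260A:G.

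All 8 genes of heme and hemoglobin clearance were tested. Hp, which encodes haptoglobin, had 623 to 1720 RPM and was lowest in the male α7E260A:G CS library. Lrp1, the hemopexin receptor, had 237 to 2380 RPM, Blvra, a biliverdin reductase, 99.2 to 226 RPM, and Hmox1, heme oxygenase, 103 to 180 RPM. Hmox1 was higher in every α7E260A:G than in every α7G library, 169 to 180 RPM against 103 to 121 RPM, with a log2 fold change of 0.70 and an adjusted p of 0.151 by edgeR, and was called by DESeq2 (adjusted p = 0.0125). Lrp1 had a log2 fold change of 1.68 with an adjusted p of 0.179 by edgeR and was also called by DESeq2 (adjusted p = 0.00273). In all, DESeq2 called 3 of the 40 list genes between the genotypes, Epor, Hmox1 and Lrp1, against 3.78 percent of all genes tested, and edgeR with the CDS length offset called these and Bcl11a, where it called 485 genes in all. The median log2 fold change of the list with CS was 0.37 in α7G and 0.22 in α7E260A:G.

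The genes whose log2 RPM was most like that of summed globin over the 8 libraries were ranked by Pearson r among 11367 genes with a mean count of 50 or more, leaving out the set. Among the highest were Espn (r of 0.927), Atg4b (0.920), Abcf3 (0.916) and Ykt6 (0.906), whose levels spanned 6.64 to 12.3, 40.04 to 52.0, 58.5 to 87.5 and 33.4 to 43.0 RPM and so varied far less than globin.

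In the male α7E260A:G CS library 11 of the 13637 genes had over 50% of their RPM summed over the 8 libraries. Among them were Hba-a1, Hba-a2, Hbb-b1, Alas2 and Slc4a1 of the set, and Spna1, Apol11b, Gm9000, Hal and Igkv3-9, a count made after the values were seen. At least Slc4a1, Spna1 and Apol11b passed the mean count filter only through this library. Igkv3-9, with a mean count of 25.5 and 71.3% of its summed RPM in this library, may have done so too. Nothing is read from the place of these genes among the 11. Hbb-b2 was not among them.

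The genes most like the Hbb-b2 share were Hpgd (r of 0.980), Tes (0.970), Ppat (0.957), D17H6S56E-5 (0.953) and Btrc (0.952), over the same 8 libraries. Each had every α7G library above every α7E260A:G library, for example 100 to 133 RPM against 61.7 to 84.9 RPM for Hpgd, which encodes the enzyme that breaks down prostaglandins. None lies on chromosome 7. The 8 shares fall into 2 separate groups, so these r are a description of genes that differ between the genotypes.

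Markers of other cells also differed between the libraries. The summed level of the 10 alveolar type II cell markers was 20604 to 31495 RPM in α7G and 4925 to 15350 RPM in α7E260A:G, and that of the 9 alveolar macrophage markers was 9488 to 16948 RPM in α7G and 23107 to 39037 RPM in α7E260A:G. The 10 platelet markers summed to 58.3 to 136 RPM in α7G and 24.2 to 51.0 RPM in α7E260A:G, and were highest in the male α7G CS library, not in the library with most globin. The 6 leukocyte markers summed to 5990 to 7488 RPM in α7G and 6442 to 7050 RPM in α7E260A:G, and the 8 endothelial markers to 599 to 790 RPM and 268 to 697 RPM. None of these markers was at 0 in every library. The platelet genes Gp9 and Gp1ba were at 0 in the female α7E260A:G CS library, Gp1bb in the male and Gp6 in the female α7E260A:G control, so single platelet genes were near the floor. No single marker was called between the genotypes by edgeR, and their part in the globin values was not tested.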

How the data were processed

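The authors deposited raw counts of reads on the coding sequence of each gene, 1 table per library, made with STAR alignment to mm9 and htseq-count on GENCODE M1 (NCBIM37); versions are not given in the sources used here. Depth was 8020726 to 10944100 counts. Counts were tested with edgeR 4.0.16 (glmQLFit and glmQLFTest, TMM, Benjamini-Hochberg at 0.05; limma 3.58.1, R 4.3.3) over 13637 genes with a mean count of 10 or more, in a model of the 4 groups. For sex the groups were covariates. Each SE is the log2 fold change over the root of its F statistic. RPM used total counts; log2 values had 0.5 RPM added. Shares carry 95% Wilson intervals. Python 3.11.15, numpy 2.4.6, pandas 2.3.3, scipy 1.17.1 and matplotlib 3.10.9 were used, and the tests were tried on simulated counts.

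The genes and lists were chosen with earlier results of these data known. Named were the 8 genes of the set, the 4 most abundant genes of each list and those called, genes called within 1 Mb of the globin genes, and the 5 genes most like summed globin or the Hbb-b2 share; some of these are not reported here. Sequences were read from the GENCODE M1 transcripts and the mm9 genome. Alternatives were DESeq2 1.42.0, library size, a mean count of 200 with immunoglobulin, histocompatibility, Gm and ribosome genes left out, all genes with a count, a CDS length offset, sex as replicate block, both together, the 4 libraries of a comparison alone, and leaving out each library.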

Additional observations from a re-analysis of the deposited data

Results flagged for a closer look

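Values far from the others were sought in each group of 4 libraries, by genotype and by exposure, as the gap to the nearest library over the range of the group, against Dixon's 95% critical value. Chance passes it in about 1 of 20 groups. Of 44 groups 12 passed it, but the genes were chosen with the blood content of the libraries known and the measures depend on each other, so this count is a description and is not set against chance. Slc4a1 passed the count filter only through the male α7E260A:G CS library. The male α7E260A:G CS library stood apart among the 4 α7E260A:G libraries for Hba-a1 (0.882), Hba-a2 (0.876), Hbb-b1 (0.875), Hbb-b2 (0.909), Alas2 (0.895), Slc4a1 (0.941) and the summed globin percentage (0.878). Among the 4 CS libraries it stood apart for Hbb-b1 (0.879), Alas2 (0.954), Slc4a1 (0.972) and the summed globin percentage (0.847). The male α7G CS library, with 0.528 alpha globin counts per beta globin count against 0.456 to 0.467 in the other α7G libraries, stood apart among these 4 (0.850). No gene of the set passed the test of whether CS acted differently in the 2 genotypes.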

How the results depend on the processing

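Genotype means of the Hbb-b2 and Hba-a2 shares moved by less than 1 SD with counts pooled over libraries. So did the Hbb-b2 share with all beta-type globins in the denominator, and the summed globin percentage with TMM, CDS length dependence removed or all globins. Leaving out 1 of 4 libraries cannot move their mean by 1 SD of the 4, so nothing is read from that comparison. The α7E260A:G mean of the globin percentage, with an SD of 0.410, fell from 0.271% to 0.0676% without the male CS library. The shares had no other alternative. Of 439 alternative values for single genes of the set, 408 kept direction and call, 30 turned and 1 passed the threshold, Alas2 with CS in α7G in the fit of 4 libraries (-1.42). With CS in α7G, Hba-a1 (0.02) turned with library size (-0.13), the CDS length offset (-0.64), block and offset (-0.38) and 4 libraries alone (-0.00017), and Hba-a2 and Hbb-b1 turned with the replicate block (0.0069 and 0.076). Leaving out 1 library at a time gave -0.36 to 0.54 for Hba-a1, -0.48 to 0.47 for Hba-a2, -0.49 to 0.45 for Hbb-b1 and -0.70 to 0.18 for Hbb-b2 with CS in α7G. With CS in α7E260A:G it gave -2.36 to 3.19, -2.03 to 3.11, -2.12 to 3.07, -2.59 to 3.45 and -2.37 to 3.59 for Hba-a1, Hba-a2, Hbb-b1, Hbb-b2 and Alas2. In the same gene order the CS difference between genotypes ran from -2.38 to 3.18, -1.95 to 3.21, -2.02 to 3.19, -2.39 to 3.67 and -0.98 to 5.01, and CS over both genotypes from -1.17 to 1.59, -1.06 to 1.505, -1.11 to 1.48, -1.40 to 1.62 and -1.88 to 1.09. For these 3 comparisons the lowest values came without the male α7E260A:G CS library. For Slc4a1, CS over both ran from -1.37, without the male α7G CS library, to 1.35.

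Counts of genes called varied. CS in α7G (0 genes) gave 25 with DESeq2 and 925 with its 4 libraries alone. CS in α7E260A:G (1) gave 35 with DESeq2, 3 with all genes, 2 with the length offset with or without the block, 0 with library size, a mean count of 200, the block or 4 libraries, and 0 to 142 without 1 library. The difference of these responses (0) gave 11 with DESeq2, 1 with the offset and 0 to 97 without 1 library. CS over both (0) gave 68 with DESeq2, 1 with all genes, 3 with the offset, 4 with block and offset and 0 to 100 without 1 library. The highest of these 3 ranges came without the male α7E260A:G control. The genotype (13) gave 516 with DESeq2, 6 with a mean count of 200, 69 with all genes, 485 with the offset, 43 with the block, 711 with both and 1 to 626 without 1 library. Without each α7G library it gave 1 to 2, and without the male or female α7E260A:G control 418 or 626. Sex (3) gave 52 with DESeq2 and 5 with the offset. The causes were not tested.

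The replicate numbers stand for sex, which the models of genotype and CS left out and the replicate block put in. Same-sex deviations correlated by 0.273, 0.279 and 0.587 in 3 of the 6 pairs of groups and by -0.018 to 0.023 in the other 3, so a shared deviation of the sexes was seen in some groups and not in all. Both fits are given, and the block moved the genotype count from 13 to 43. Depth limits Slc4a1, Klf1 and Epb4.2, of which a few counts per library cannot show a difference.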
